A study of Gallus gallus with 9 samples.

Results

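Histone deacetylases remove acetyl groups from lysines of histones and other proteins, and most act as the enzymes of transcriptional corepressor complexes. Class I enzymes such as HDAC1, HDAC2, HDAC3 and HDAC8 are mostly nuclear and broadly expressed. Class IIa members (HDAC4, HDAC5, HDAC7 and HDAC9) have little enzymatic activity of their own, bind MEF2 transcription factors through their amino-terminal part and move between nucleus and cytoplasm after phosphorylation. HDAC9 is also made as a short splice form, MITR, that lacks the deacetylase domain.

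The genes described here are HDAC9 and the other deacetylases HDAC1, HDAC2, HDAC3, HDAC4, HDAC7, HDAC8 and HDAC10, in the buds that form the chicken face. They were chosen by name from the annotation of the array, which gave 17 probe sets for 8 genes, out of 38439 probe sets and 13009 named genes in all. HDAC9 itself was picked because its signal was known to separate the mandibular and maxillary buds from the frontonasal mass. Its differences from the frontonasal mass are therefore described without a test. HDAC11 has 1 probe set on the array and was not among the chosen genes. HDAC5 and HDAC6 had no probe set of their own in the annotation used and were not measured.

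All tissue came from normal, untreated embryos of unstated genotype at Hamburger Hamilton stage 18. The groups were the mandibular prominence (bud of the lower jaw), the maxillary prominence (lateral upper jaw) and the frontonasal mass, taken between the nasal pits (middle of the upper beak). Each array held RNA of 1 pool of 26 to 32 dissected pieces of mesenchyme with its epithelium, and there were 3 pools per prominence, 9 arrays in all, so that values describe pools and not single embryos. In whole pieces, fewer cells of a type and less RNA per cell cannot be told apart.

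Values are linear probe set signals after scaling of the arrays to a common median. The background of an array, taken as the 95th percentile over 598 viral and reporter-gene probe sets, was 31.6 to 37.1. Probe sets above it made up 49.2% to 53.3% of an array. Arrays of the same prominence correlated with each other at a median of 0.979 to 0.987, lowest in the frontonasal group. Frontonasal pool 2 stood apart: the summed signal of 8 liver and visceral organ markers was 562 to 620 in the mandibular pools and 573 to 610 in the maxillary pools, but 490, 5056 and 668 in frontonasal pools 1, 2 and 3. The ratio of 3' to 5' signal of GAPDH was 1.23 to 1.28 in the mandibular, 1.19 to 1.29 in the maxillary and 1.27 to 1.51 in the frontonasal pools. That of actin was 2.01 to 2.17, 1.99 to 2.46 and 1.88 to 2.41 in the same order and overlapped.

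HDAC9 was high in both jaw buds and low, though measurable, in the frontonasal mass. Its brightest probe set gave signals of 407, 429 and 417 in the mandibular pools. The maxillary pools gave 556, 592 and 606, and the frontonasal pools 62.7, 63.7 and 58.4. No groups overlapped, all 9 signals lay above background, and the 3 pools of each prominence lay close together. The means were 418 ± 10.9 in mandibular, 584 ± 25.8 in maxillary and 61.6 ± 2.83 in frontonasal pools (SD, n = 3 each). The ratio of mean signals was 6.78 for the mandibular and 9.49 for the maxillary prominence over the frontonasal mass.

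On the scale of log2(signal + 16), which understates changes of dim genes, HDAC9 was higher in the mandibular than in the frontonasal pools by 2.48 ± 0.07 (SE from limma) and higher in the maxillary than in the frontonasal pools by 2.95 ± 0.07. Of all 38439 probe sets it ranked 15 by positive difference in the mandibular comparison and 7 in the maxillary one. A difference of at least that size in either direction was reached by 0.0754% and 0.026% of the probe sets. HDAC9 was chosen for these differences, so its ranks and these shares follow from the choice and are no test. Leaving out 1 array at a time, frontonasal pool 2 included, left these values at 2.45 and 2.92 or higher. With the 3 probe sets of the gene averaged, 2 of them dim, the differences were 1.07 and 1.10.

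The order of HDAC9 levels was maxillary, mandibular, frontonasal. The step between the upper 2 did not pass the test, although every maxillary pool lay above every mandibular pool. The log2 difference of mandibular minus maxillary pools was -0.47 ± 0.07 (SE), with a 95% interval of -0.64 to -0.30 and a limma adjusted p of 0.0597 over all probe sets. In that comparison 0.263% of all probe sets were called at an adjusted p under 0.05, and 13.5% had groups that did not overlap. With a pseudocount of 32 in place of 16 the adjusted p was 0.0232, and over the other alternatives run it was 0.0532 or higher, the highest where the 3 probe sets of the gene were averaged. The mandibular minus maxillary test used the same estimate of spread as the differences from the frontonasal mass. HDAC9 was chosen for the latter.

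The other 2 probe sets of HDAC9 were dim. The brighter of them gave 37.2, 64.9 and 35.6 in the mandibular pools, 38.2, 34.1 and 30.2 in the maxillary pools and 14.5, 25.0 and 12.9 in the frontonasal pools. It was above background on 3 mandibular arrays, 1 maxillary array and 0 frontonasal arrays. It was again lowest in the frontonasal mass, without overlap. At these levels the mandibular signal can only be said to be at least 1.30-fold higher. No such bound is given for the maxillary signal, since it was above background on only 1 array. The order of mandibular and maxillary pools, whose signals overlapped, was not that of the bright probe set. The third lay below background on all 9 arrays, at 1.18 to 11.4, and gives no information on the gene. The bright and the middle probe set correlated across the 9 arrays with r = 0.772, as a description of points that share their arrays. Which exons or splice forms each probe set reads was not analysed here.

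**Figure D1:**
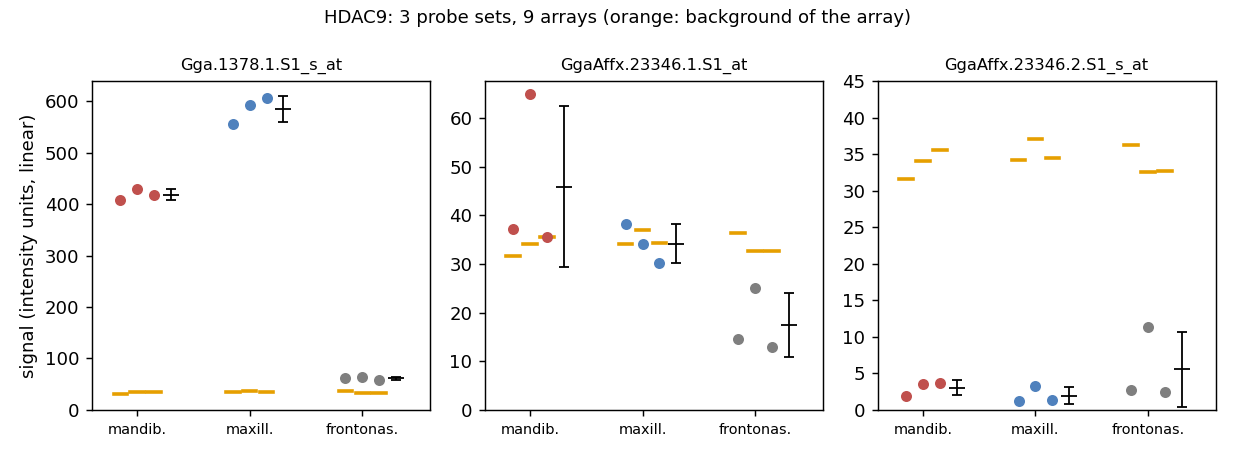
Signals of the 3 HDAC9 probe sets on the 9 arrays, in linear intensity units on separate vertical axes that start at 0. Points are pools, black marks the mean with its SD (n = 3), and orange lines give the background of each array. The bright probe set sits near 418 in mandibular, 584 in maxillary and 61.6 in frontonasal pools, while the second lies around background and the third below it.

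Among the other deacetylases, 1 probe set of 14 was called higher in the mandibular than in the frontonasal pools, 0 lower and 13 did not pass (limma, adjusted p under 0.05). Over all probe sets 2.53% were called, 1.18% higher and 1.35% lower, in this comparison. Between maxillary and frontonasal pools the counts were again 1 higher, 0 lower and 13 not passing, against 2.25% called, 0.905% higher and 1.34% lower, over all probe sets. Both calls belonged to the same probe set of HDAC10. Between mandibular and maxillary pools 0 of the 14 were called by limma, with 1 at an unadjusted p under 0.05, against 0.172% higher and 0.0911% lower over all probe sets. Groups without overlap occurred for 4 of the 14 in each comparison, against 18%, 17.6% and 13.5% of all probe sets in the same order. Of these 14 probe sets 10 were above background on all 9 arrays and 1, of HDAC1, on none. This dim probe set was the 1 at an unadjusted p under 0.05 between mandibular and maxillary pools. It was also among the 4 without overlap in each comparison. The median log2 difference of the 14 was -0.01 for mandibular minus frontonasal, 0.08 for maxillary minus frontonasal and 0.03 for mandibular minus maxillary pools.

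HDAC10, a class IIb enzyme that in human acts mainly on acetylated polyamines, was the second deacetylase gene with higher signal in the jaw buds. Its brightest probe set gave 241, 227 and 254 in mandibular pools, 221, 195 and 227 in maxillary pools and 101, 148 and 134 in frontonasal pools. Both jaw buds lay above every frontonasal pool, and every mandibular pool lay above every maxillary pool by a small margin. The ratio of mean signals was 1.88 for mandibular over frontonasal and 1.67 for maxillary over frontonasal pools. HDAC10 rose by 0.85 ± 0.13 on the log2 scale in mandibular against frontonasal pools (SE, limma adjusted p = 0.0118, n = 3 each, 95% interval 0.55 to 1.14). In maxillary against frontonasal pools it rose by 0.69 ± 0.13 (limma adjusted p = 0.0333, 95% interval 0.39 to 0.98). The mandibular minus maxillary difference was 0.16 ± 0.13 and did not pass (limma adjusted p = 0.924, 95% interval -0.14 to 0.45).

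The HDAC10 calls were near the threshold. The mandibular call was lost without mandibular pool 1 or 3 with differences of 0.85 and 0.81, where the limma adjusted p lay just above 0.05. The maxillary call was lost in 7 of the 9 fits that left out 1 array, all but those without frontonasal pool 1 or 2, with the highest limma adjusted p of 0.109 without maxillary pool 3. With the replicate number as a block the maxillary call was lost too (limma adjusted p = 0.0678). The second HDAC10 probe set gave 114, 131 and 127 in mandibular, 111, 110 and 119 in maxillary and 69.5, 92.9 and 91.5 in frontonasal pools. Its groups were ordered in the same way against the frontonasal mass, without overlap, with differences of 0.49 ± 0.11 and 0.37 ± 0.11 that did not pass (limma adjusted p = 0.0675 and 0.170). These 2 probe sets correlated with r = 0.958 across the 9 arrays. The third was at background, at 26.8 to 43.7, and above it on 4 of 9 arrays. With the 3 probe sets averaged, neither HDAC10 difference passed (0.45 with adjusted p = 0.0735 and 0.38 with adjusted p = 0.128, limma).

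The class I genes showed no called difference. HDAC2, which with HDAC1 forms the catalytic core of the SIN3, NuRD and CoREST complexes, gave 3387, 3042 and 3312 in mandibular pools, 3576, 3260 and 3008 in maxillary pools and 3062, 3073 and 3278 in frontonasal pools. The 3 groups overlapped. Its log2 differences were 0.05 (95% interval -0.16 to 0.25) for mandibular minus frontonasal and 0.06 (-0.15 to 0.27) for maxillary minus frontonasal pools. HDAC8, which in mouse is needed in cranial neural crest for the skull, gave 668, 718 and 729 in mandibular, 767, 733 and 672 in maxillary and 667, 786 and 742 in frontonasal pools. These groups overlapped as well, and both intervals against the frontonasal mass lay within -0.26 to 0.20. HDAC3, the enzyme of the NCOR complexes, had mean signals of 180 ± 23.7, 165 ± 8.23 and 184 ± 25.9 in mandibular, maxillary and frontonasal pools (SD, n = 3 each), and its second probe set also overlapped between all groups.

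HDAC1 was read by 4 probe sets that did not move together. The brightest gave 840, 861 and 848 in mandibular, 789, 808 and 744 in maxillary and 527, 739 and 708 in frontonasal pools. No groups overlapped, and frontonasal pool 1 was the lowest. The log2 differences from the frontonasal mass were 0.38 ± 0.12 for mandibular and 0.25 ± 0.12 for maxillary pools and did not pass (limma adjusted p = 0.211 and 0.416). A dimmer probe set gave 51.8 to 59.5 in mandibular, 61.5 to 64.1 in maxillary and 56.4 to 82.9 in frontonasal pools, and correlated with the brightest at r = -0.881 across the 9 arrays. A further probe set overlapped between all groups at 107 to 141, and the last was below background on every array.

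In class IIa, HDAC4 and HDAC7 gave no called difference. HDAC4, which in mouse restrains chondrocyte hypertrophy, gave 256, 222 and 248 in mandibular, 236, 238 and 237 in maxillary and 248, 158 and 223 in frontonasal pools. Only frontonasal pool 2 was apart, at the low end. The log2 differences were 0.21 (95% interval -0.12 to 0.54) for mandibular minus frontonasal and 0.18 (-0.15 to 0.52) for maxillary minus frontonasal pools. HDAC7, known in mouse for its part in blood vessel integrity, lay at 9.07 to 44.8 on its 2 probe sets and was above background on 3 of 9 arrays with each, so a difference was not detectable at this signal. The class IV gene HDAC11 gave 230 to 297 in mandibular, 247 to 250 in maxillary and 246 to 286 in frontonasal pools, with a log2 difference of -0.02 (95% interval -0.25 to 0.22) for mandibular minus frontonasal pools.

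**Figure D2:**
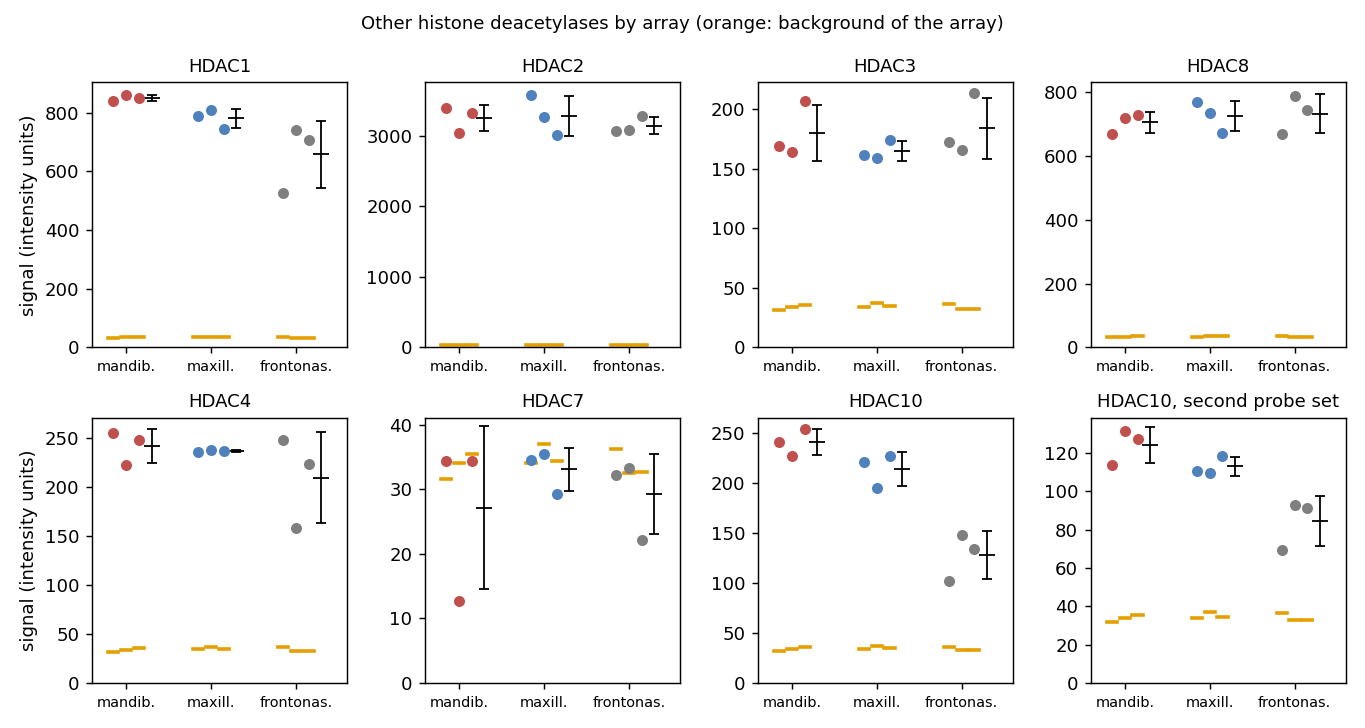
Signals of the brightest probe set of each other deacetylase and of the second HDAC10 probe set, in linear intensity units on vertical axes that start at 0. Points are pools, black marks the mean with its SD (n = 3), and orange lines the background of each array. HDAC10 is lower in all 3 frontonasal pools on both probe sets, HDAC2, HDAC3 and HDAC8 overlap between prominences, and HDAC7 lies at background.

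**Figure D3:**
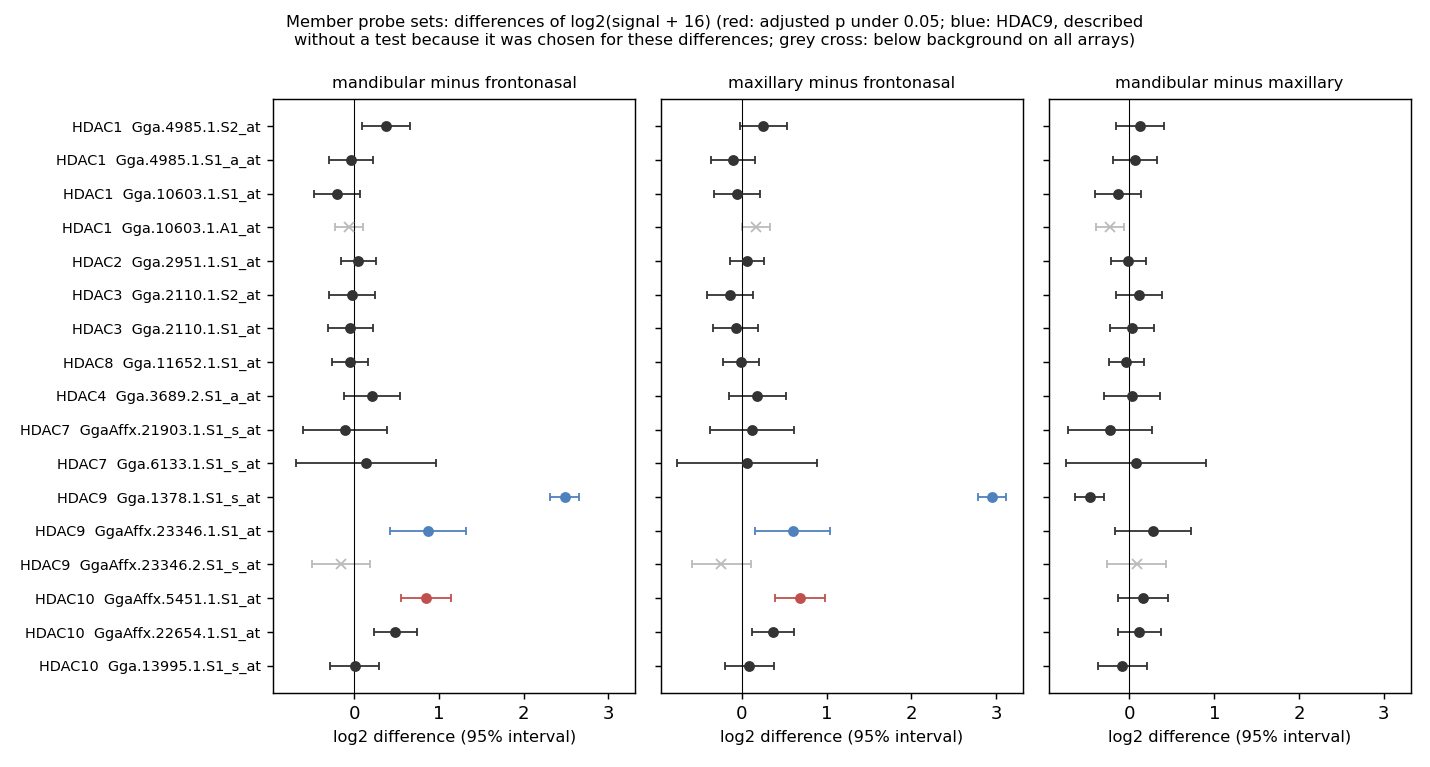
Log2 differences with 95% intervals (horizontal axis) for the 17 probe sets (rows) in the 3 comparisons. Red marks calls at a limma adjusted p under 0.05, blue the HDAC9 differences that are described without a test, and grey crosses probe sets below background on all arrays. The bright HDAC9 probe set lies at 2.48 and 2.95 in the comparisons with the frontonasal mass, followed by the brighter HDAC10 probe set at 0.85 and 0.69 among those called.

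The partners of these enzymes were read by lists chosen with earlier results known, with 1 probe set per gene. Over all 13009 genes 1.85% were called higher and 2.33% lower between mandibular and frontonasal pools, 1.31% and 2.24% between maxillary and frontonasal pools, and 0.292% and 0.161% between mandibular and maxillary pools. Of 11 measured MEF2 factors and other class IIa partners, 0 were higher and 1 was lower in mandibular than in frontonasal pools, and 0 were called in the other comparisons (limma, 1 in each at an unadjusted p under 0.05). The median log2 difference of the list was 0.00, 0.02 and -0.01 in mandibular minus frontonasal, maxillary minus frontonasal and mandibular minus maxillary pools, against 0.00, -0.01 and 0.01 over all genes. Over the 8 genes of the list above background on at least 3 arrays it was -0.12, 0.01 and -0.07 in the same order.

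The lower partner was MEF2A, a MADS-box factor bound by class IIa deacetylases. Its brightest probe set gave 347, 348 and 315 in mandibular, 395, 352 and 355 in maxillary and 474, 427 and 503 in frontonasal pools. The frontonasal pools were the highest without overlap. MEF2A fell by 0.45 on the log2 scale in mandibular against frontonasal pools (SE 0.09, limma adjusted p = 0.0415), and the maxillary minus frontonasal difference of -0.33 ± 0.09 did not pass (limma adjusted p = 0.131). The mandibular call was lost in 8 of the 9 fits that left out 1 array, all but that without frontonasal pool 2, with the highest limma adjusted p of 0.143 without mandibular pool 3. With the replicate number as a block its limma adjusted p was 0.0795. In all, the call was lost in 11 of 17 alternatives, among them a pseudocount of 4 and the fit of only these arrays. Of the 4 other MEF2A probe sets, 2 were above background on all arrays, and their differences of -0.28 and -0.05 did not pass. MEF2C, a class IIa partner of muscle, vessels and neural crest, was above background on 1 of 9 arrays. MEF2D gave a difference of -0.11 ± 0.16 for mandibular minus frontonasal pools (limma adjusted p = 0.847). A second MEF2D probe set above background on all arrays gave 211, 211 and 152 in mandibular, 196, 245 and 257 in maxillary and 286, 236 and 311 in frontonasal pools. Its mandibular pools lay below every frontonasal pool, with a difference of -0.51 ± 0.16 that did not pass (limma adjusted p = 0.193).

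The other lists gave no calls in any comparison. Among 21 measured members of the class I corepressor complexes limma called 0, with 2, 2 and 0 at an unadjusted p under 0.05 in mandibular minus frontonasal, maxillary minus frontonasal and mandibular minus maxillary pools. The member furthest from 0 was SIN3B, a scaffold of the SIN3 complex, at -0.34 ± 0.13 for mandibular minus frontonasal pools (adjusted p = 0.266). Among 21 measured kinases, 14-3-3 proteins and the exporter that move class IIa enzymes out of the nucleus limma called 0, with 3, 4 and 2 at an unadjusted p under 0.05. SIK1, a salt-inducible kinase of class IIa deacetylases, was furthest, at -0.67 ± 0.18 for maxillary minus frontonasal pools (adjusted p = 0.129). Among 13 lysine acetyltransferases, which add the mark that deacetylases remove, limma called 0, with 0, 2 and 1 at an unadjusted p under 0.05, and HAT1 was furthest, at 0.41 ± 0.10 for maxillary minus frontonasal pools (adjusted p = 0.107), a difference that was called on the deposited scale and after quantile normalization. NCOA3, of the same list, was called lower in that comparison with a pseudocount of 32. Among 6 sirtuins, the NAD-dependent deacetylases, limma called 0, with 0, 1 and 0 at an unadjusted p under 0.05, and SIRT3, a mitochondrial sirtuin, was furthest, at 0.28 ± 0.10 for maxillary minus frontonasal pools (adjusted p = 0.256).

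The chromosomal neighbours of HDAC9 did not share its pattern. In human and mouse, sequences inside HDAC9 act as enhancers of the neighbouring gene TWIST1, a helix-loop-helix regulator of crest mesenchyme. In the reference gene table (assembly GRCg7b) TWIST1 and then FERD3L follow HDAC9 on one side, and SNX13 is the nearest protein-coding gene on the other. TWIST1 gave 272, 349 and 261 in mandibular, 363, 242 and 282 in maxillary and 301, 274 and 234 in frontonasal pools. All groups overlapped. Its log2 differences from the frontonasal mass were 0.11 (95% interval -0.27 to 0.50) for mandibular and 0.11 (-0.27 to 0.50) for maxillary pools, intervals that lie below the HDAC9 differences. SNX13, a sorting nexin, differed by 0.10 ± 0.11 and 0.02 ± 0.11 in the same comparisons. FERD3L, a helix-loop-helix gene, lay near background, above it on 5 of 9 arrays. AHR1A, matched to AHR of the named neighbours, differed by 0.31 ± 0.16 and 0.07 ± 0.16 in the same comparisons. Of further protein-coding neighbours, picked after their values were seen, TWISTNB differed by 0.05 ± 0.13 and 0.05 ± 0.13, and AGR3 was below background on all arrays. By their brightest probe sets 0 of these neighbours were called in any comparison (limma, adjusted p of 0.448 or more, 0 at an unadjusted p under 0.05). The 3 long noncoding genes among the nearest table entries, and PRPS1L1, which lies on another chromosome in this table, add no neighbour values.

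**Figure D4:**
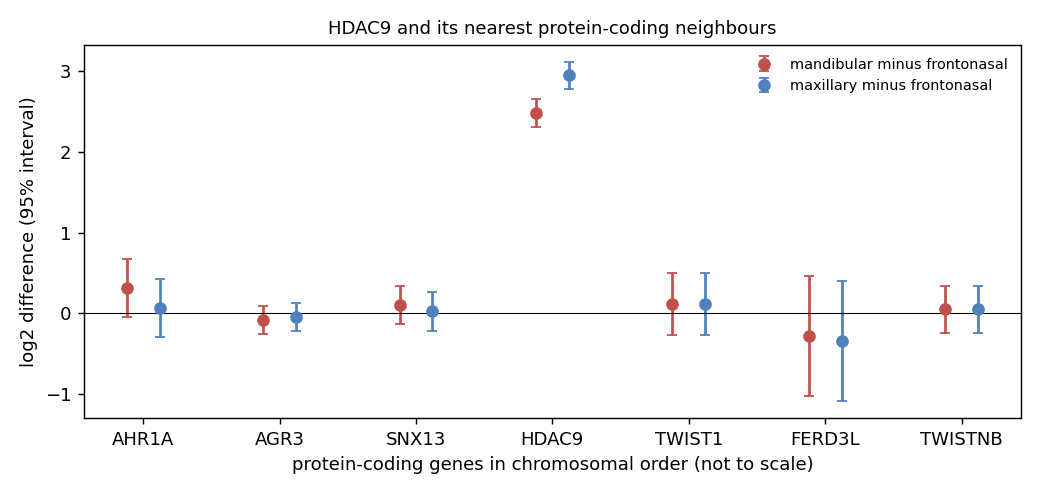
Log2 differences with 95% intervals (vertical axis) of the brightest probe set of HDAC9 and of its nearest measured protein-coding neighbours, in chromosomal order and not to scale. Red is mandibular minus frontonasal and blue maxillary minus frontonasal. HDAC9 lies at 2.48 and 2.95, TWIST1 at 0.11 in both and SNX13 at 0.10 and 0.02.

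Genes with a pattern like that of HDAC9 were ranked by the Pearson correlation of log2(signal + 16) with its bright probe set over the 9 arrays, among 10104 genes above background on at least 3 arrays. These correlations follow from the large step between jaw buds and frontonasal mass and share the same arrays, so they are descriptions. The 10 highest were LHX8 (r = 0.997), WNT2B (0.993), DLX1 (0.990), PLA2G10L (0.979), TNNC2 (0.977), GSTA2 (0.976), COL9A1 (0.976), PAX9, METAP1D and LSS (0.967). They include transcription factors of jaw and arch mesenchyme or endoderm (LHX8, DLX1, PAX9), a WNT ligand, a cartilage collagen gene, a troponin gene and the sterol synthesis gene LSS. DLX1 gave 160, 129 and 111 in mandibular, 236, 260 and 192 in maxillary and 7.46, 6.46 and 9.82 in frontonasal pools, the same order of prominences as HDAC9. Its frontonasal signals were below background, so it can only be said to be at least 3.90-fold higher in mandibular and 6.73-fold in maxillary pools. LHX8, WNT2B, PLA2G10L and COL9A1 were also below background on all frontonasal arrays and passed the filter through the jaw buds. GSTA2, a glutathione transferase gene, had a smaller step and overlapping jaw buds, at 1189.8 ± 18.9 in mandibular, 1250.4 ± 54.6 in maxillary and 759.9 ± 70.2 in frontonasal pools (SD, n = 3 each).

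In all, 115 genes correlated above 0.9, so membership of the 10 is loose. By Spearman correlation 3 of them were among the 10 highest, and without frontonasal pool 2 4 were. HDAC10 ranked 140 with r = 0.889, HDAC1 had r = 0.693 and the 5 other deacetylases -0.344 to 0.490. The 5 lowest correlations were those of COLEC12 (-0.996), a scavenger receptor gene, EMP1 (-0.991), NR2E1 (-0.990), BRINP1 (-0.990) and PRSS23 (-0.990). NR2E1 was above background on the frontonasal arrays only. COLEC12 gave 916, 843 and 966 in mandibular, 783, 748 and 752 in maxillary and 2200, 1953 and 2226 in frontonasal pools, so it was highest where HDAC9 was lowest.

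**Figure D5:**
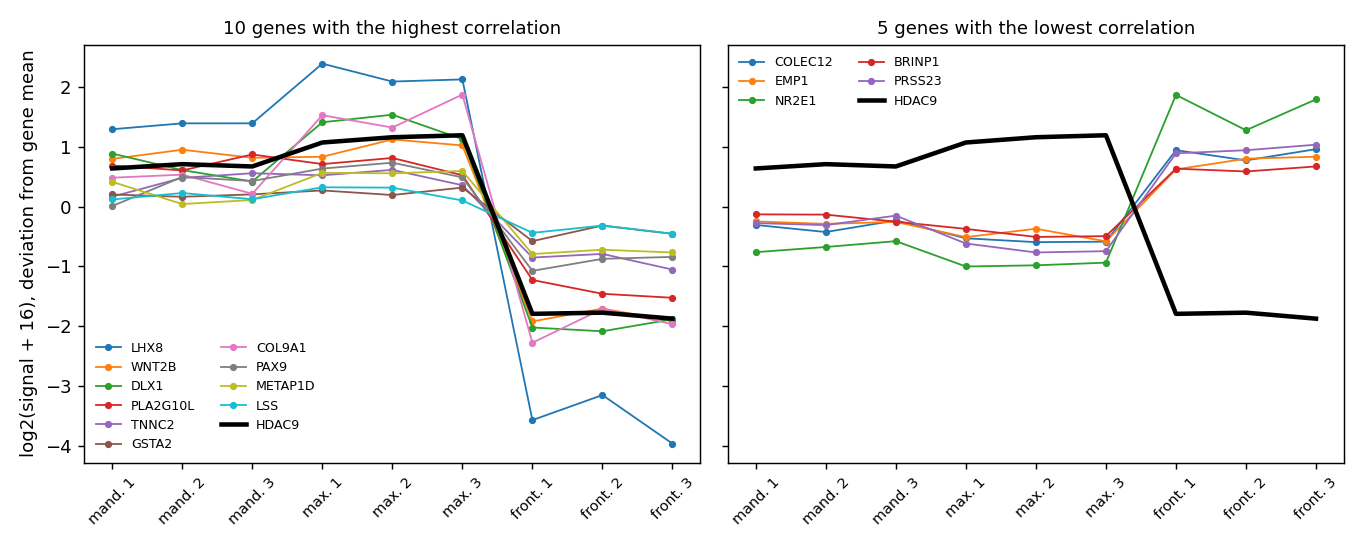
Deviation of log2(signal + 16) from the mean of each gene (vertical axis) on the 9 arrays (horizontal axis) for the 10 genes with the highest and the 5 with the lowest correlation with HDAC9, which is drawn in black. Lines only join the values of a gene. All genes of the left panel drop in the 3 frontonasal pools and those of the right panel rise there.

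Markers of some other cell types that the pieces could hold also moved with the prominence. Of 6 leukocyte markers limma called 0 in any comparison of the main fit. At an unadjusted p under 0.05 were 2 for mandibular minus frontonasal, 2 for maxillary minus frontonasal and 0 for mandibular minus maxillary pools. The leukocyte sums overlapped, at 816 to 850 in mandibular, 798 to 992 in maxillary and 820 to 844 in frontonasal pools. The marker counts stand beside shares over all 13009 genes of 1.85% higher and 2.33% lower for mandibular minus frontonasal pools. These shares were 1.31% and 2.24% for maxillary minus frontonasal and 0.292% and 0.161% for mandibular minus maxillary pools. Of 10 endothelial markers 4 were higher in mandibular than in frontonasal pools (CD34, CDH5, FLT1 and SOX18) and 2 in maxillary than in frontonasal pools (CD34 and SOX18), with 0 lower (limma). Their summed signal was 2105 to 2209 in mandibular, 1570 to 1801 in maxillary and 833 to 1367 in frontonasal pools, with pool 2 the highest of the frontonasal pools. EMCN was below background on all arrays. CD34 rose by 1.47 ± 0.15 and SOX18 by 1.29 ± 0.13 in mandibular against frontonasal pools (limma adjusted p = 0.00154 and 0.0017).

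These counts depended on single arrays and on the fit. Without frontonasal pool 2 they were 6 and 5. The mandibular count was 2 (CD34 and SOX18) without mandibular pool 1 or 3, maxillary pool 1 or 3 or frontonasal pool 1 or 3, and with the replicate block. The maxillary count was 0 without maxillary pool 2, and 1 (CD34) without mandibular pool 2 or 3, maxillary pool 1 or frontonasal pool 1 or 3. With the replicate block it was 1 (CD34) as well. With only the arrays of the prominences compared, the mandibular count was 2 and the maxillary count 0. The endothelial sums were ordered mandibular, maxillary, frontonasal. HDAC10 and the second HDAC9 probe set had that order by their means, and the bright HDAC9 probe set had the maxillary pools highest. The part of endothelium in the HDAC9 and HDAC10 differences was not tested.

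Of 8 measured muscle markers MYF5, an early myogenic factor, was called higher in both jaw buds than in the frontonasal mass (limma adjusted p = 0.0077 and 0.0133). It was not above background on any frontonasal array, so its signal can only be said to be at least 1.63-fold higher in mandibular and at least 1.51-fold higher in maxillary pools. The maxillary call was lost without maxillary pool 2 or when only the arrays of these groups were fitted. MYOG and DES lay below background on all arrays. The muscle sums were 414 to 455 in mandibular, 389 to 431 in maxillary and 341 to 423 in frontonasal pools and overlapped. MYF5 did not stand for the list. Over the 5 muscle markers above background on at least 3 arrays the median log2 difference was -0.02 for mandibular and -0.21 for maxillary minus frontonasal pools. Of the 8 markers 3 and 4 had an unadjusted p under 0.05 in limma. Another marker had the largest maxillary minus frontonasal difference in absolute size, 1.37. It was not called, and its direction is not given here.

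The 6 measured epithelial markers summed to 4710 to 4916 in mandibular, 3886 to 4476 in maxillary and 5428 to 6261 in frontonasal pools, with EPCAM and CDH1 above background throughout. Of these markers 1 was higher and 2 were lower in mandibular than in frontonasal pools, and 1 was higher and 3 were lower in maxillary than in frontonasal pools (limma). The count of lower markers in mandibular pools was 0 without any 1 mandibular or maxillary pool, without frontonasal pool 3, with a pseudocount of 4 and with the replicate block, and 1 without frontonasal pool 1 or 2. In maxillary pools it was 1 without maxillary pool 2 or 3. KRT14, the higher marker, kept its maxillary call in only 2 of the 9 fits without 1 array, those without maxillary pool 3 or frontonasal pool 2.

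The 8 markers of crest mesenchyme were above background in all mandibular and maxillary pools and summed to 3688 to 4310 in mandibular, 5258 to 6742 in maxillary and 4009 to 4563 in frontonasal pools. Of these 2 were higher (PRRX1 and TWIST2) and 1, ALX1, was lower in mandibular than in frontonasal pools (limma). In maxillary against frontonasal pools 3 were higher (PRRX1, PRRX2 and TWIST2) and 0 lower. ALX1 was called lower there too with a pseudocount of 32, on the deposited scale and after quantile normalization. The low-signal filter and the changed variance prior gave the same call. Against the frontonasal mass ALX1 had the direction opposite to that of the bright HDAC9 probe set. PRRX1, PRRX2 and TWIST2, where called, had the same direction as that probe set. In mandibular against maxillary pools 0 markers were higher and 2 were lower, ALX1 and PRRX2, the direction of the bright HDAC9 probe set between the jaw buds. The PRRX2 call was lost without any 1 mandibular or maxillary pool or frontonasal pool 3.

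The 7 measured neuronal markers summed to 1066 to 1185 in mandibular, 419 to 444 in maxillary and 518 to 1016 in frontonasal pools. Limma called 1 lower in mandibular than in frontonasal pools (NEUROG1) and 3 lower in maxillary than in frontonasal pools (ELAVL4, NEUROG1 and STMN2). It called 1 higher in mandibular than in maxillary pools (STMN2). The low-signal filter kept only 5 of these 7 markers, those above background on at least 3 arrays. With it NEUROG1 was not among the calls against the frontonasal mass. Over the 5 neuronal markers above background on at least 3 arrays the median log2 difference was 0.64 for mandibular minus frontonasal pools. For maxillary minus frontonasal pools it was -0.70. Without frontonasal pool 2 the mandibular markers were 2 higher and 2 lower than the frontonasal ones, and without any 1 maxillary pool, or frontonasal pool 1 or 3, the maxillary count was 1 lower. The STMN2 call was lost without mandibular pool 1 or 3 or any 1 maxillary pool. It was also lost with only the mandibular and maxillary arrays fitted, where ISL1 and NEFM were called higher in mandibular pools. The 7 measured arch mesoderm and cardiac markers summed to 863 to 900.3 in mandibular, 261 to 303 in maxillary and 167 to 1523 in frontonasal pools, highest in frontonasal pool 2. Limma called 0 of them in any comparison, with 4, 2 and 2 at an unadjusted p under 0.05. Without frontonasal pool 2 it called 3 higher in mandibular and 1 higher in maxillary than in frontonasal pools. With only the mandibular and maxillary arrays fitted it called 3 higher in mandibular pools (ISL1, NKX2-5 and TNNT2). Without frontonasal pool 3 MYH7, below background on all arrays, was called lower in both jaw buds. ISL1 stands in both the neuronal and the arch mesoderm list. Of 4 erythroid markers SLC4A1, the red cell anion exchanger, was lower in mandibular than in frontonasal pools (limma adjusted p = 0.0385), a call kept in 2 of the 9 fits without 1 array, those without maxillary pool 2 or frontonasal pool 2. The part of these cell types in the HDAC9 and HDAC10 differences was not tested.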

How the data were processed

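Expression was measured on Affymetrix chicken arrays. The deposited values were linear intensities per probe set, 1 column per array, and the sources used here do not name the software that summarised the probes. The members and gene lists were chosen with earlier results of these data known. Without 96 control probe sets, each array was scaled to a common median and log2(signal + 16) was fitted in limma 3.58.1 (R 4.3.3) with 1 mean per prominence over all 9 arrays (6 residual degrees of freedom). P-values were adjusted by Benjamini-Hochberg over 38439 probe sets and called under 0.05. They measure the spread between pools. Gene names came from the platform annotation, with 27168 probe sets of 1 gene, 177 of several and 11094 of none. Symbols were updated through gene IDs of a reference table for 26853 probe sets. For a gene with several probe sets, the one of highest mean signal stood for it. Named genes were all members, the genes most and least like HDAC9, and list members called or furthest from 0. The fit was tested on simulated data. Alternatives changed the pseudocount, scaling, low-signal filter, variance prior, replicate block, arrays fitted and probe set rule. The number of arrays limits the precision.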

Additional observations from a re-analysis of the deposited data

How the results depend on the processing

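Of 885 differences of members under alternatives 866 kept their side of the threshold, 14 lost the call and 5 gained one. Most of the 885 belonged to differences not called in the main fit. All 14 losses were of the brightest HDAC10 probe set. They were 3 of 18 alternatives for mandibular minus frontonasal and 11 of 18 for maxillary minus frontonasal pools. Changes of sign with a call before or after numbered 0. Differences near 0 that were not called could change sign. That of HDAC3 in mandibular minus frontonasal pools was -0.03, and up to 0.08 without 1 array. HDAC9 in mandibular minus maxillary pools passed with a pseudocount of 32 (-0.45). The HDAC10 call in maxillary minus frontonasal pools was lost with a pseudocount of 4 (0.74), with only these arrays fitted (0.69) and with probe sets averaged (0.38, and 0.45 for the mandibular call). Leaving out 1 array gave HDAC10 differences of 0.71 to 0.95 for mandibular and 0.55 to 0.79 for maxillary minus frontonasal pools. Calls over all probe sets were 974 for mandibular minus frontonasal pools (526 to 1088 without 1 array, 613 with only these arrays), 864 for maxillary minus frontonasal (424 to 796, and 412) and 1014 among all prominences (627 to 1009). For mandibular minus maxillary pools they were 101 (15 to 174 without 1 array, 46 with a pseudocount of 4, 171 with the low-signal filter, where fewer probe sets were tested). Otherwise the cause was not tested. Same-numbered arrays of different prominences deviated together at r of 0.0166 to 0.12, over 0.1 in 1 of 9 pairs, so the numbers were not taken as pairing. All 9 lay above the 18 pairs of unlike number (-0.095 to 0.0115), a hint from the data and not the design. With the replicate block the HDAC10 maxillary difference stayed at 0.69 without passing, and mandibular minus maxillary calls were 47. Signals near background limit HDAC7, the dim HDAC9 probe sets and the third HDAC10 probe set.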
